A study of Mus musculus with 16 samples.

Results

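The genes described here are 34 components of the folding, stress sensing and degradation machinery of the endoplasmic reticulum (ER), taken by name from the 31053 genes of the deposited table. They are chaperones of the BiP system, the calnexin cycle with the ER form of Hsp90, the enzymes of disulfide formation and proline isomerization, genes of ER-associated degradation (ERAD), and the stress sensors with the transcription factor Xbp1. All 34 symbols were found in the table. The list goes by names alone, and it was proposed with earlier results of these data known. The RNA came from C2C12, a mouse myoblast line that fuses into myotubes in culture. The titles divide the 16 samples into 4 groups of 4, namely WT undifferentiated (WT myoblasts), WT differentiated (WT myotubes), KO undifferentiated (KO myoblasts) and KO differentiated (KO myotubes). KO cells lack Fam134b, a receptor for the autophagy of ER (ER-phagy). The study's methods describe its disruption with lentiviral Cas9 and pairs of guides, followed by selection with Blasticidin and Neomycin. Whether the KO cells were a pool or a clone is not given in the sources used here, and effects of the guides, the selection or a clone cannot be told apart from the loss of the gene. Both genotypes and both stages were grown in DMEM with 10% FBS, the day of collection is not in the labels, and a separate label field gives the genotype of each sample as unknown.

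Secretory and membrane proteins enter the ER unfolded. BiP (Hspa5), an Hsp70, binds them with the help of J-domain cochaperones, calnexin and calreticulin hold those that carry sugars, and protein disulfide isomerases, reoxidized by Ero1 enzymes, form their disulfide bonds. Proteins that do not fold are drawn back into the cytosol through complexes built around Sel1l and the ubiquitin ligase Hrd1 (Syvn1) and are degraded, which is ERAD. When unfolded proteins build up, the sensors IRE1 (Ern1), PERK (Eif2ak3) and ATF6 (Atf6) start the unfolded protein response. IRE1 splices Xbp1 mRNA to give an active transcription factor, ATF6 is cut in the Golgi to release another, and PERK slows translation and favours that of Atf4. Differentiating muscle cells build a large specialized ER and secrete matrix, and parts of this response are known to be active during their differentiation. Counts per gene do not tell spliced from unspliced Xbp1 mRNA, nor cut from whole ATF6.

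The total of reads assigned to genes was between 1484750 and 3287461, with the lowest totals in KO myotubes 4 and KO myotubes 2 (1790524), so that 3 reads, the level taken as the floor of detection, corresponded to a normalized count of 2.49 to 5.99. A normalized count is the number of reads of a gene divided by a scaling factor of the sample. Fam134b itself was read at 214, 251, 213 and 149.7 in WT myoblasts and 287, 146, 263 and 232 in WT myotubes, against 26.2, 24.9, 35.6 and 23.4 in KO myoblasts and 31.9, 56.9, 50.4 and 27.97 in KO myotubes. The groups did not overlap, with a log2 fold change (± standard error) of -2.86 ± 0.26 in myoblasts (adjusted p = 2.95e-08) and -2.46 ± 0.26 in myotubes (adjusted p = 9.85e-07). The summed level of 8 myotube markers lay between 974.1 and 1569 in WT myoblasts and between 10.01 and 17.4 in KO myoblasts, and it reached 20289 to 28661 in WT and 9609 to 13107 in KO myotubes. Myog, the regulator of terminal differentiation, had 149, 105, 92.1 and 109.6 in WT myoblasts and 0 reads in every KO myoblast sample, and Myod1, the determination factor, had 375, 236, 245 and 270.0 against 15.7, 5.81, 6.07 and 10.8. The 6 myoblast markers, Myod1 among them, summed to 1040 to 1522 in WT and 311.3 to 427.7 in KO myoblasts. Des (means 516 and 132) and Cdh15 (277 and 66.5) were also lower in KO myoblasts. Myf5 went the other way, with 76.6, 59.8, 66.0 and 82.0 in WT and 106.7, 113.7, 116.2 and 118.5 in KO myoblasts. Vcam1 was level (means 45.4 and 47.7), and Pax7 was at or near 0. The samples labelled undifferentiated therefore differ between genotypes in how much of the muscle programme they express, and each genotype comparison below includes that difference. The 5 cycling-cell markers summed to between 4223 and 4904 in WT and between 3497 and 5245 in KO myoblasts, against 2142 to 3547 in WT and 863.8 to 1447 in KO myotubes. Of the 5 fibroblast markers, Thy1 and Lum were at or near 0 everywhere, while the sum of the list, mostly Col1a1, was 2260 to 4592 in WT and 3023 to 11545 in KO myoblasts, and 10007 to 16317 in WT and 12295 to 24910 in KO myotubes. Col1a1 was higher in KO than in WT myoblasts (1.102 ± 0.34, adjusted p = 0.0294). Dcn, which encodes decorin, had 2.77, 0.964, 0 and 0.891 in WT and 5.25, 0.830, 0.868 and 2.503 in KO myoblasts, against 81.2, 17.1, 53.9 and 60.4 in WT and 203, 115, 151 and 106 in KO myotubes, and it was higher in KO myotubes (1.57 ± 0.50, adjusted p = 0.0265). Of the adipocyte markers, Adipoq and Plin1 had 0 reads in all 16 samples, but Cebpa and Lpl were expressed, and the list of 5 summed to 72.0 to 91.1 in WT and 117.05 to 159.6 in KO myoblasts, and to 107.9 to 197.7 in WT and 207.2 to 449.2 in KO myotubes. Lpl, lipoprotein lipase, had 9.23, 9.64, 14.01 and 5.35 in WT and 86.6, 54.8, 98.03 and 85.1 in KO myoblasts (2.99 ± 0.34, adjusted p = 8.99e-07), and 154, 53.1, 68.8 and 65.4 in WT and 398, 159, 184 and 289.7 in KO myotubes (1.618 ± 0.34, adjusted p = 0.00143). The WT and KO values of Lpl did not overlap at either stage. Ibsp, Alpl and Cdh5, of osteoblasts and endothelium, and Ptprc, of leukocytes, had 0 reads in all samples, while Cd68 and Lyz2 had a few, and the 4 immune markers summed to at most 13.0 in any sample. The part of these marker differences in the results was not tested, and in RNA from whole cultures fewer cells of a type and less RNA per cell cannot be told apart.

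The members took 0.201% ± 0.0517 (SD, n = 4) of the reads in WT myoblasts, 0.382% ± 0.115 in WT myotubes, 0.227% ± 0.0484 in KO myoblasts and 0.444% ± 0.127 in KO myotubes. Some samples stood apart from their group in most of these genes. In WT myotubes 1, 31 of 31 tested members lay above their group mean, by a median of 0.51 on the log2 scale, although only 52.0% of the 10767 tested genes did. The sample WT myoblasts 4 had 2 of 31 above (median deviation -0.46), WT myotubes 2 had 2 (median -0.26) and KO myotubes 1 had 29 (median 0.41). WT myoblasts 1 and KO myoblasts 3 had 28 each (medians 0.30 and 0.31). KO myotubes 4 had 8 (median -0.39), WT myotubes 3 had 7 (median -0.13) and KO myoblasts 4 had 5 (median -0.10). By contrast, WT myotubes 4, KO myoblasts 1 and KO myotubes 2 had 15 each. Over all tested genes, 47.9% to 54.8% lay above the group mean in each sample. Where leaving out one of these samples removed a call of a member described below, that is given with it. Calls gained in such fits are given for some members only.

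**Figure D1:**
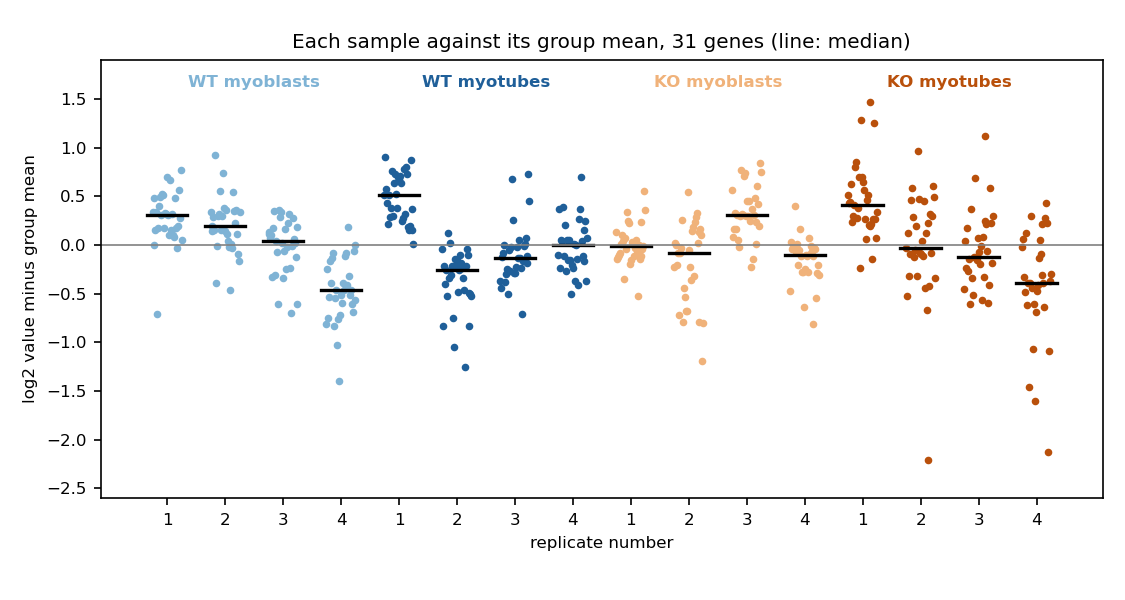
The log2 value of each of the 31 tested members minus its group mean (vertical axis, log2 units) in each of the 16 samples (horizontal axis, replicate numbers by group), 1 point per gene and a line at the median. The line is highest in WT myotubes 1 (0.51) and lowest in WT myoblasts 4 (-0.46).

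Genes entered the limma model if 4 or more samples reached a normalized count of 10, which left 10767 genes and 31 of the members. Those with a Benjamini-Hochberg adjusted p under 0.05 over these genes are termed called. Below, a value with ± in brackets is a log2 fold change with its standard error, and a value in brackets after a setting or a sample left out is the adjusted p of limma in that fit. Of the 31, 24 reached a count of 10 in all 16 samples. Hyou1, Pdia4, Pdia5, Edem2, Edem3, Syvn1 and Ern1 reached it in fewer, and Hyou1 did so in 0 of 4 KO myoblast samples but in 4 of 4 KO myotube samples, so that its filter and its change are linked. The 3 members not tested were Ero1lb, a relative of Ero1l, with 1 to 5 reads per sample, the derlin Derl3, with 4 reads in WT myotubes 1 and 0 in the other 15 samples, and the sensor gene Eif2ak3. In Eif2ak3 the reads per sample ranged from 1 to 12 and the normalized counts were 6.46, 0.964, 2.001 and 0.891 in WT myoblasts, 6.91, 1.799, 4.65 and 4.95 in WT myotubes, 5.25, 1.66, 10.4 and 2.503 in KO myoblasts and 6.78, 1.46, 6.298 and 1.998 in KO myotubes, so that a difference in PERK mRNA was not detectable at this depth.

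Differentiation raised about the same number of members in both genotypes. In WT cells 17 of 31 members rose and 0 fell, where 13.8% of all tested genes rose and 9.16% fell, and the median log2 fold change was 0.87 over the members and -0.01 over all tested genes. In KO cells 17 rose and 1 fell, against 17.3% and 16.1% of all tested genes, with a median of 0.72 over the members and -0.02 over all genes. Of the members that rose, 15 did so in both genotypes, which is 88.2% of each list. Edem3 and Xbp1 were called in WT cells alone, and Hyou1 and Creld2 in KO cells alone, but for none of these 4 did the test of the difference between genotypes pass. The comparisons between genotypes called far fewer members. In myoblasts 4 members were higher in KO cells and 0 lower (all tested genes: 7.26% higher, 8.50% lower), and in myotubes 2 were higher and 3 lower (9.74% higher, 13.7% lower). The median log2 difference of KO from WT was 0.03 over the members in myoblasts and 0.01 in myotubes, against -0.01 and -0.07 over all tested genes. The change on differentiation differed between genotypes for 1 member, Herpud1, which rose less in KO cells, where 1.97% of all tested genes differed upward and 1.48% downward. Each genotype comparison shares its samples with the differentiation comparisons, and the values are therefore given side by side. Dnajc3, Dnajc10, Manf, Pdia3, Edem2, Derl2 and Syvn1 were called in none of the 5 comparisons. Groups without overlap were common among all tested genes. In WT cells 14 of the 31 members lay above without overlap in myotubes and 0 below (all tested genes: 16.1% and 12.0%). In KO cells these were 13 and 0 (14.3% and 13.1%). For KO against WT cells they were 6 and 2 in myoblasts (12.8% and 14.0%) and 1 and 2 in myotubes (8.52% and 10.8%).

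**Figure D2:**
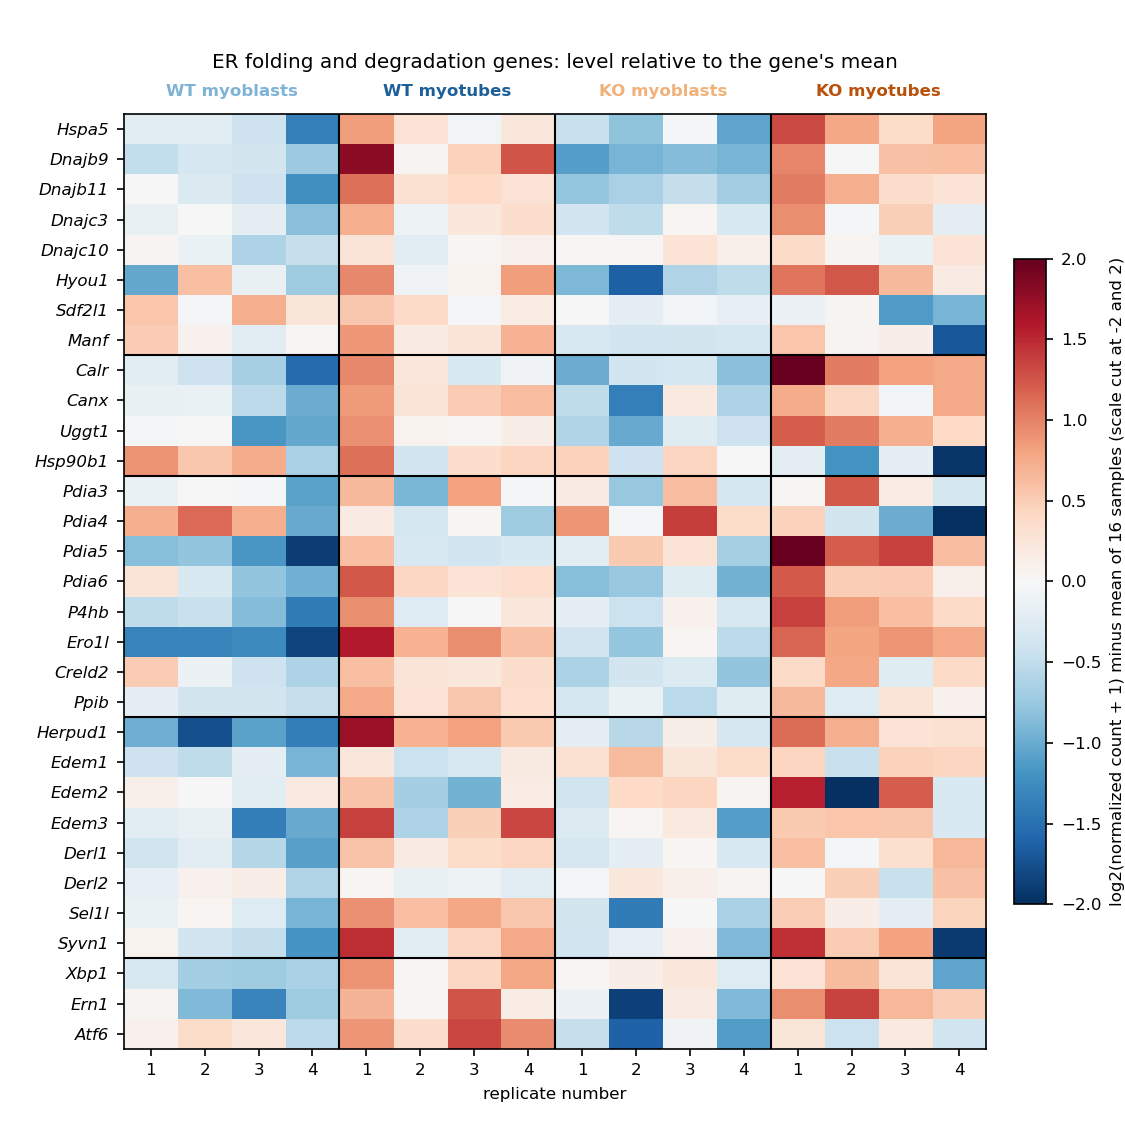
The log2(normalized count + 1) of the 31 tested members (rows, lines between the 5 role groups) minus the gene's mean over the 16 samples (columns, replicate numbers by group), on a colour scale in log2 units cut at -2 and 2. On average 27 of the 31 rows are higher in WT myotubes and 25 in KO myotubes than in the myoblasts of that genotype. Hsp90b1, Sdf2l1 and Pdia4 are among those higher in neither. WT myotubes 1 and WT myoblasts 4 stand at the upper and lower ends of their groups.

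Promoters of ER chaperone genes are known to carry the ER stress response element (ERSE), CCAAT and CCACG separated by 9 bases, which binds NF-Y together with ATF6 or XBP1, and a second element, ERSE-II, ATTGG and CCACG separated by 1 base. RefSeq promoters of 300 bases, 250 before and 50 after the start annotated in RefSeq (build GRCm38.p6), were available for 30 of the 34 members, with Ero1l and Ero1lb listed there as Ero1a and Ero1b and no entry matched for Hyou1, Manf, Derl1 and Atf6. Both strands were searched. ERSE letters were found in 10 of the 30 members (33.3%) and in 37 of 27025 genes with an entry (0.137%), and ERSE-II letters in 2 members and 12 genes (0.0444%). The counts over all genes include the members. Since these elements are known from promoters of ER chaperone genes, the shares are a description and not a test. The UPRE letters TGACGTGG were found in 0 of the 30 members and in 193 genes (0.714%). These are matches of letters in a window and not measured binding. The 13 matches, of which no pair overlapped, lie in 12 of the 30 members. They are written 5′ to 3′ on the strand of the motif with the motif letters in capitals.
Hspa5: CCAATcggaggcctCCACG
Dnajc3: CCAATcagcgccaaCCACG
Calr: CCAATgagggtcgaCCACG
Canx: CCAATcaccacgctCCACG
Hsp90b1, farther from the start: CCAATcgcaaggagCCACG
Hsp90b1, nearer to the start: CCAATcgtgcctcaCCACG
Pdia6: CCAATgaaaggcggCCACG
Ero1lb: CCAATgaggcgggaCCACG
Creld2: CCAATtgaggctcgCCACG
Derl3: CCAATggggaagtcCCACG
Syvn1: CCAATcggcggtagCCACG
Dnajb11, ERSE-II: ATTGGcCCACG
Herpud1, ERSE-II: ATTGGgCCACG

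The matches began between 212 bases before and 7 bases after the annotated start. Of the 12 members with either element, 10 were tested: 6 rose and 0 fell in WT cells (median log2 fold change 0.96), and 7 rose and 0 fell in KO cells (median 0.95). Of the 17 tested members with a promoter entry and neither element, 10 rose and 0 fell in WT cells (median 0.84), and 8 rose and 1 fell in KO cells (median 0.50). Hspa5, Calr and Canx carry an ERSE and rose in both genotypes, Hsp90b1 carries 2 copies and rose in neither, and Ero1l and P4hb showed no match in this window and rose in both. No test of this split was made.

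**Figure D3:**
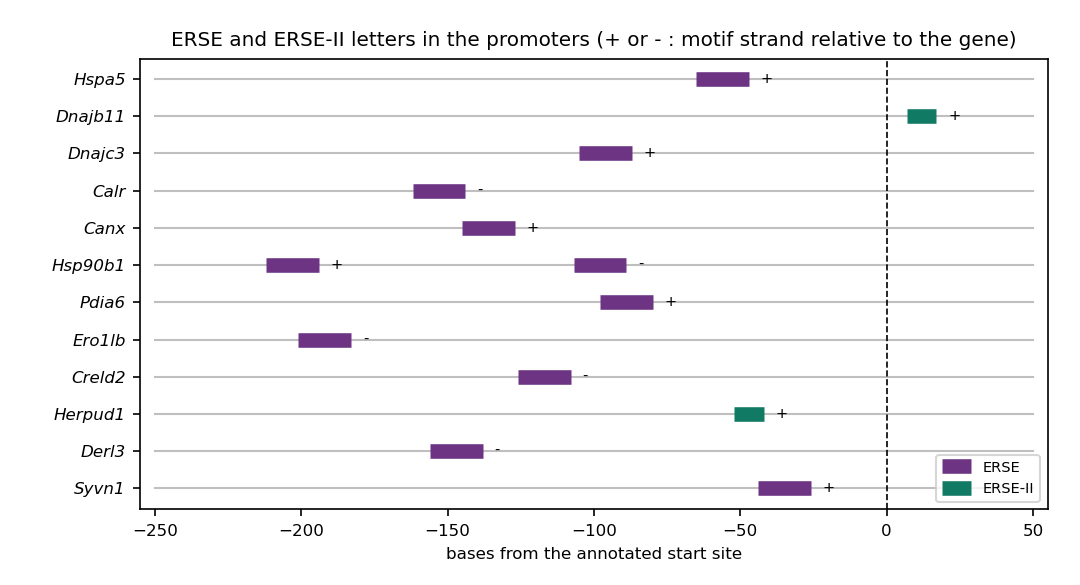
Positions of ERSE (purple) and ERSE-II (green) letters in the 12 member promoters that hold them, in bases from the annotated start site (dashed line), with the strand of the motif relative to the gene. The matches lie from 212 bases before to 17 bases after the start, and Hsp90b1 holds 2.

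Among the genes of the BiP system, Hspa5 and its cochaperones Dnajb9 (ERdj4) and Dnajb11 (ERdj3) rose in both genotypes. Hyou1, the large Hsp70 that acts as nucleotide exchange factor for BiP, was called in KO cells. Of the 8 members of this group, 3 rose in WT and 4 in KO cells, and none fell. Hspa5 lies on the plus strand at chr2:34771970-34777547. These are GENCODE coordinates, and the start in RefSeq lies 120 bases after the GENCODE start. The 250 bases before the RefSeq start, at chr2:34771840-34772089, plus strand, therefore reach into the GENCODE gene, and the ERSE, in capitals, lies after the GENCODE start.
Hspa5 promoter: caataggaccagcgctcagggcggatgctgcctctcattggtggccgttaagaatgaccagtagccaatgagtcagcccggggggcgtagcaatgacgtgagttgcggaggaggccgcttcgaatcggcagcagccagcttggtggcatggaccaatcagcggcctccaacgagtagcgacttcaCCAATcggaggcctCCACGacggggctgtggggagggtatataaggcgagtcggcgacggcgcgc

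Hspa5 had normalized counts of 638, 641, 553 and 288 in WT myoblasts and 1318, 901, 713 and 864 in WT myotubes, a log2 fold change of 0.87 ± 0.27 (adjusted p = 0.0227). In KO cells it went from 543, 423, 730.5 and 355 to 1861, 1272, 951 and 1283, a log2 fold change of 1.399 ± 0.27 (adjusted p = 3.81e-04). Myoblasts and myotubes did not overlap in either genotype, and WT myotubes 1 and KO myotubes 1 were the highest of their groups. Dnajb9 went from 28.6, 31.8, 31.02 and 24.1 in WT myoblasts to 142, 42.3, 55.8 and 98.1 in WT myotubes, and from 18.4, 20.8, 21.7 and 20.9 to 80.4, 40.9, 61.2 and 61.9 in KO cells. Its log2 fold changes were 1.37 ± 0.31 (adjusted p = 0.00278) and 1.499 ± 0.31 (adjusted p = 7.50e-04), again without overlap. As a limit, 14.8% of its 3′ end is shared in stretches of 31 bases with the gene model Gm6568. Dnajb11 stood at 83.05, 67.5, 62.05 and 34.8 in WT myoblasts and 179, 103, 109.7 and 101 in WT myotubes (log2 fold change 1.004 ± 0.25, adjusted p = 0.00698). The KO myoblasts stood at 48.1, 52.3, 58.99 and 50.9 and the KO myotubes at 170.4, 137, 106 and 99.9 (1.24 ± 0.25, adjusted p = 7.38e-04). The 3 WT myotube samples other than replicate 1 lay close together at 101.1 to 109.7. Hyou1 was low throughout, with 5.54, 19.3, 11.01 and 7.13 in WT myoblasts, 25.04, 11.7, 13.01 and 22.8 in WT myotubes, 6.12, 3.32, 7.81 and 8.34 in KO myoblasts and 27.1, 30.6, 19.8 and 13.99 in KO myotubes. The KO groups did not overlap (log2 fold change 1.69 ± 0.41, adjusted p = 0.00324), the WT groups did (0.77 ± 0.41, adjusted p = 0.186), and the difference between the changes was 0.92 ± 0.58 (adjusted p = 0.432). Dnajc3, the cochaperone that also inhibits PERK, had log2 fold changes of 0.59 in WT and 0.59 in KO cells and missed the threshold in both (adjusted p = 0.0922 and 0.0730). It was called in KO cells without KO myotubes 2 (adjusted p = 0.0462) or KO myotubes 4 (0.0268). Sdf2l1, Dnajc10 and the secreted stress protein Manf were not called on differentiation. The call of Hspa5 in WT cells was lost without WT myoblasts 4 (0.111) or WT myotubes 1 (0.0959).

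In the calnexin cycle, Canx (calnexin), Calr (calreticulin) and Uggt1, the enzyme that adds a glucose back to unfolded glycoproteins so that they bind again, rose in both genotypes, and Hsp90b1 (Grp94) rose in neither. Calr had 1002, 877, 737 and 402 in WT myoblasts and 2282, 1365, 946 and 1117 in WT myotubes, with a log2 fold change of 0.91 ± 0.30 (adjusted p = 0.0339) and overlapping groups. In KO cells it went from 589, 898, 919 and 652 to 4627, 2361, 2038 and 1964, without overlap, a log2 fold change of 1.78 ± 0.30 (adjusted p = 1.20e-04) or a 3.42-fold rise on the scale of normalized count + 1. The difference between these changes was 0.86 ± 0.43 and did not pass (adjusted p = 0.305). As a limit, 10.3% of the 3′ end of Calr is shared in stretches of 31 bases with the pseudogene Calr-ps. Its promoter, the 250 bases before the RefSeq start at chr8:84846932-84847181, minus strand, holds the element read on the opposite strand, so that the capitals below are the reverse complement of the match given above.
Calr promoter: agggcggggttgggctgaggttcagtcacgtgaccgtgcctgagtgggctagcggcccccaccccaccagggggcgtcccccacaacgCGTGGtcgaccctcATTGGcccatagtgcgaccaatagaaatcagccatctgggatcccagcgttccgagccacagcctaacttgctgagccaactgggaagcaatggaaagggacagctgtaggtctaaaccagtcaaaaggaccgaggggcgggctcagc

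Canx had 1308, 1319, 1006 and 729 in WT myoblasts and 2633, 1731, 2069.7 and 2221 in WT myotubes (1.01 ± 0.27, adjusted p = 0.00910). Its KO values were 1024, 564, 1661 and 943 against 2424, 1930.5, 1402 and 2464 (1.04 ± 0.27, adjusted p = 0.00483). The WT groups did not overlap, whereas KO myoblasts 3 lay above KO myotubes 3. Uggt1 stood at 82.1, 83.9, 37.03 and 40.99 and 161, 88.2, 85.5 and 92.1 in WT cells (0.84 ± 0.28, adjusted p = 0.0373). The KO values were 55.1, 41.5, 71.1 and 63.4 and 198, 174, 139 and 112 (1.41 ± 0.28, adjusted p = 6.85e-04), and neither genotype overlapped between the stages. Hsp90b1, an ER chaperone of integrins and other receptors, had 122, 94.5, 109 and 40.99 in WT myoblasts and 139.9, 49.5, 82.7 and 87.2 in WT myotubes, which overlapped widely. In KO cells the values were 89.2, 48.1, 87.6 and 65.1 and 57.1, 27.7, 56.7 and 15.99, a log2 fold change of -0.997 ± 0.39 that missed the threshold (adjusted p = 0.0547). In WT cells Calr was no longer called without WT myoblasts 3 (0.0670), WT myoblasts 4 (0.152), WT myotubes 1 (0.148) or WT myotubes 2 (0.05004), nor with no filter on low values (adjusted p = 0.0528). Uggt1 was no longer called without WT myoblasts 3 (0.147), WT myoblasts 4 (0.132), WT myotubes 1 (0.157) or WT myotubes 4 (0.0583), nor with no filter (0.0520) or total scaling (0.0531). The KO value of Hsp90b1 passed with the replicate block (adjusted p = 0.0127), with quantile normalization (0.0359), and without WT myoblasts 4 (0.0370), WT myotubes 1 (0.0481), WT myotubes 2 (0.0474), KO myoblasts 2 (0.0373), KO myotubes 1 (0.0286) or KO myotubes 3 (0.0274).

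Among the disulfide and isomerase genes, the largest log2 fold change of any member in WT cells was that of Ero1l (Ero1a), the oxidase that reoxidizes disulfide isomerases. It had 26.8, 27.004, 28.02 and 18.7 in WT myoblasts and 209.8, 112, 133 and 104 in WT myotubes, a log2 fold change of 2.39 ± 0.24 or 5.24-fold (adjusted p = 2.33e-07). In KO cells it went from 52.5, 39.8, 71.1 and 47.6 to 156, 119.7, 129 and 118, a log2 fold change of 1.31 ± 0.24 (adjusted p = 2.21e-04). The myotube groups overlapped while all KO myoblasts lay above the WT myoblasts, and the difference between the changes was -1.08 ± 0.34 (adjusted p = 0.0847), past the threshold only without KO myoblasts 2 (0.0487). P4hb, the founding disulfide isomerase and the beta subunit of prolyl 4-hydroxylase, which modifies collagen, had 746, 773, 577 and 400.1 in WT myoblasts and 2018, 883, 1051 and 1238 in WT myotubes (1.03 ± 0.25, adjusted p = 0.00549). The KO myoblasts had 936, 782, 1123 and 851 and the KO myotubes 2721, 1879, 1599.6 and 1381 (1.003 ± 0.25, adjusted p = 0.00413). Within each genotype, no sample of one stage reached the range of the other. Pdia5, another disulfide isomerase, had 13.8, 14.5, 11.01 and 6.24 in WT myoblasts and 39.7, 20.7, 19.5 and 20.8 in WT myotubes (1.08 ± 0.35, adjusted p = 0.0323). KO cells had 21.9, 37.4, 31.2 and 15.9 and 106, 61.3, 68.4 and 39.96 (1.33 ± 0.35, adjusted p = 0.00634), with KO myoblasts overlapping WT myotubes. Pdia6 rose by 1.01 in WT and 1.28 in KO cells on the log2 scale (adjusted p = 0.0105 and 0.00106), from means of 196 ± 77.9 to 391 ± 141 and from 159 ± 37.8 to 396 ± 139 (SD, n = 4). Creld2 was called in KO cells (0.84 ± 0.24, adjusted p = 0.0114), and its WT value was 0.52 ± 0.24 (adjusted p = 0.132). The isomerase Ppib (cyclophilin B) was called in both (0.82 and 0.50, adjusted p = 0.00205 and 0.0355), but its last 500 bases lie wholly within Snx22 on the opposite strand. The strand setting of the counting is not given in the sources used here. Pdia4 was the single member that fell, in KO cells, from 28.9, 14.9, 41.6 and 20.02 in myoblasts to 21.3, 11.7, 7.197 and 1.998 in myotubes (-1.49 ± 0.53, adjusted p = 0.0344). Its groups overlapped, KO myotubes 4 held 1 read, and its WT value was -0.61 ± 0.53 (adjusted p = 0.431). Pdia3, the partner of calnexin and calreticulin, was not called in either genotype.

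Several of these calls rested on single samples. In WT cells Pdia5 was lost without WT myoblasts 3 (0.0660), WT myoblasts 4 (0.125), WT myotubes 1 (0.133) or WT myotubes 4 (0.0502), and with no filter on low values (adjusted p = 0.0549), quantile normalization (0.0610) or limma voom (0.0598). Pdia6 was lost without WT myotubes 1 (0.0550). In KO cells Ppib was lost without KO myoblasts 1 (0.0765), KO myoblasts 3 (0.106), KO myoblasts 4 (0.0583), KO myotubes 1 (0.143) or KO myotubes 3 (0.0704), and with total scaling (0.0652), quantile normalization (0.0585), weights by group (0.0624) or only the 8 samples compared (0.0877). Pdia4 was lost without KO myoblasts 1 (0.0819), KO myoblasts 3 (0.108), KO myoblasts 4 (0.0516), KO myotubes 3 (0.0632) or KO myotubes 4 (0.127), with no filter (0.0625), weights by group (0.0704), limma voom (0.0703) or only the 8 samples (0.0715), and had a log2 fold change of -0.92 (adjusted p = 0.192) without the 2 shallow KO myotube samples. Creld2 was also lost without those 2 samples (adjusted p = 0.114).

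**Figure D4:**
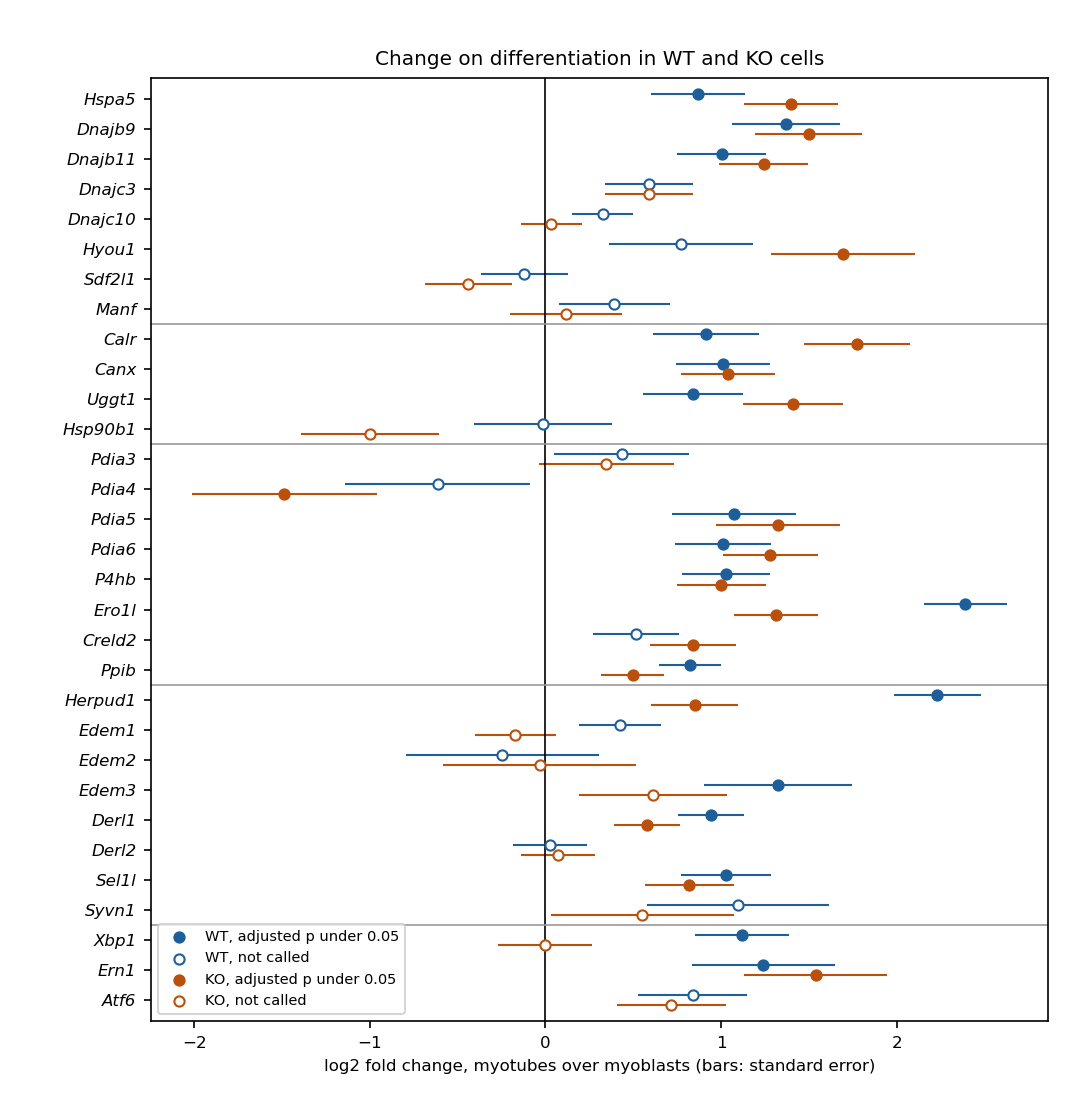
Log2 fold change of myotubes over myoblasts (horizontal axis, bars are the standard error) for the 31 tested members (rows, lines between role groups) in WT (blue) and KO (orange) cells of 4 samples a group, filled where the adjusted p was under 0.05. Ero1l and Herpud1 show the largest WT changes (2.39 and 2.23), Xbp1 lies at 0 in KO cells, and Pdia4 is the member called lower.

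Of the ERAD genes, Herpud1, a stress-induced partner of the Hrd1 complex, had the largest change in WT cells. It lies on the plus strand at chr8:94386438-94395377, and the 250 bases before its RefSeq start, at chr8:94386179-94386428, plus strand, hold its ERSE-II.
Herpud1 promoter: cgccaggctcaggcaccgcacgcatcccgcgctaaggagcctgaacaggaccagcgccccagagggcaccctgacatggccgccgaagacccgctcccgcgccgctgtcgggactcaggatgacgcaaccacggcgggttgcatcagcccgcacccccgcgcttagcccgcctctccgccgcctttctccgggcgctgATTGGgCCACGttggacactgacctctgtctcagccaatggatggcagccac

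Herpud1 had 141, 81.98, 132 and 107 in WT myoblasts and 922, 452, 488 and 403 in WT myotubes, a log2 fold change of 2.23 ± 0.25 or 4.7003-fold (adjusted p = 1.17e-06). Its KO values went from 243, 189, 304 and 220.2 to 609, 463, 339 and 344, a log2 fold change of 0.85 ± 0.25 (adjusted p = 0.0116). The stages did not overlap in either genotype. Sel1l, the scaffold of the Hrd1 complex, had 127, 143, 116 and 73.1 and 262, 213, 239.8 and 203 in WT cells (1.03 ± 0.26, adjusted p = 0.00618). Its KO values were 108, 52.3, 139.7 and 88.4 and 196, 153, 121 and 189.8 (0.82 ± 0.26, adjusted p = 0.0173), with KO myoblasts 3 inside the range of the KO myotubes. Derl1, a derlin of the retrotranslocation channel, stood at 267, 302, 235 and 165 and 519, 391, 453 and 468 in WT cells (0.94 ± 0.19, adjusted p = 0.00112). KO cells had 277, 310.5, 360.0 and 284 in myoblasts and 532, 341, 437 and 554 in myotubes (0.58 ± 0.19, adjusted p = 0.0225). The KO groups overlapped. As a limit, 17.5% of the 3′ end of Derl1 is shared in stretches of 31 bases with the gene model Gm35638. Edem3, a mannosidase that marks glycoproteins for degradation, had 19.4, 20.3, 8.01 and 10.7 in WT myoblasts and 59.6, 14.4, 31.6 and 58.5 in WT myotubes (1.33 ± 0.42, adjusted p = 0.0277), with overlap. The KO values were 18.4, 23.2, 26.03 and 10.01 and 32.9, 33.6, 33.3 and 17.98 (0.61 ± 0.42, adjusted p = 0.277). The ligase Syvn1 had a WT log2 fold change of 1.097 ± 0.52 that missed the threshold (adjusted p = 0.135) with values of 26.8, 19.3, 18.01 and 10.7 and 72.5, 21.6, 34.4 and 43.6, and it passed with weights by group (0.0416), with only the 8 samples compared (0.0221) and without KO myotubes 4 (0.0268). Edem1, Edem2 and Derl2 were not called on differentiation. In WT cells Edem3 was lost without WT myoblasts 3 (0.102), WT myoblasts 4 (0.0805), WT myotubes 1 (0.112) or WT myotubes 4 (0.103). In KO cells Derl1 was lost without KO myoblasts 1 (0.0671), KO myoblasts 4 (0.0625), KO myotubes 1 (0.0675) or KO myotubes 4 (0.0629) and with weights by group (0.0666), and Sel1l without KO myoblasts 2 (0.0721) or KO myotubes 1 (0.0526), with weights by group (0.0617), and without the 2 shallow KO myotube samples (0.0729).

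Of the sensors, Ern1 rose in both genotypes. It had 24.9, 12.5, 9.01 and 14.3 in WT myoblasts and 38.9, 24.3, 58.5 and 26.7 in WT myotubes (1.24 ± 0.41, adjusted p = 0.0325). KO cells had 21.9, 5.81, 26.9 and 12.5 and 46.5, 62.7, 38.7 and 33.97 (1.54 ± 0.41, adjusted p = 0.00606). The KO stages did not overlap, and WT myoblasts 1 lay inside the WT myotube range. Xbp1 had 205, 158, 155 and 161 in WT myoblasts and 473, 260.0, 340.1 and 435 in WT myotubes, without overlap, a log2 fold change of 1.12 ± 0.27 (adjusted p = 0.00473). In KO cells it had 259, 281, 298 and 213 in myoblasts and 313, 395, 304 and 122 in myotubes, with a 95% interval of the log2 difference of -0.56 to 0.55. KO myotubes 4 was the lowest Xbp1 value of the 16 samples, and without it the KO log2 fold change was 0.36. The difference between genotypes in the change of Xbp1 was -1.12 ± 0.38 and did not pass the threshold (adjusted p = 0.114), except without KO myotubes 2 (0.0407). Atf6 had 59.1, 72.3, 65.05 and 38.3 in WT myoblasts and 104, 71.1, 141 and 108 in WT myotubes (0.84 ± 0.31, adjusted p = 0.0554), which just missed the threshold, and 40.2, 17.4, 52.9 and 25.03 and 65.8, 40.9, 63.9 and 41.96 in KO cells (0.72 ± 0.31, adjusted p = 0.0790). With a pseudocount of 5 (adjusted p = 0.0429), a minimum of 50 (0.0497), the replicate block (0.0264), weights by group (0.0326), limma voom (0.0242) or only the 8 samples compared (0.0132), Atf6 was called higher in WT myotubes, as it was without WT myotubes 2 (0.0264), KO myoblasts 2 (0.0335), KO myoblasts 3 (0.0420), KO myotubes 2 (0.0449) or KO myotubes 4 (0.0487). Its KO change was called without KO myoblasts 3 (0.0242) and with the replicate block (0.0405). In WT cells the call of Ern1 was lost without WT myoblasts 2 (0.0709), WT myoblasts 3 (0.112), WT myoblasts 4 (0.0677), WT myotubes 1 (0.0836) or WT myotubes 3 (0.116), and with no filter on low values (0.0551).

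In myoblasts, KO cells had more Herpud1, Ero1l, Pdia5 and Edem1 than WT cells. The WT and KO values of these genes, given above for the first 3, did not overlap. The log2 fold changes were 1.14 ± 0.35 for Pdia5 (adjusted p = 0.0292), 1.05 ± 0.25 for Herpud1 (adjusted p = 0.00451) and 1.03 ± 0.24 for Ero1l (adjusted p = 0.00391), each close to a doubling. Edem1, which delivers misfolded glycoproteins to ERAD, had 62.7, 58.8, 73.1 and 43.7 in WT and 104, 130.3, 99.8 and 109 in KO myoblasts (0.90 ± 0.23, adjusted p = 0.00941). In myotubes Edem1 stood at 98.4, 62.1, 66.9 and 95.1 in WT and 113, 61.3, 116 and 114 in KO cells and was not called. Hspa5 averaged 530.1 ± 166 in WT and 513 ± 165 in KO myoblasts (SD, n = 4), with a 95% interval of the log2 difference of -0.59 to 0.52. Of the 8 members of the BiP system and the 4 of the calnexin cycle, 0 were called in this comparison in the limma fit, and 1 of those 12 had an unadjusted p under 0.05. With 7.26% of all tested genes called higher and 8.50% lower, a count of 0 among 12 genes is not far from the background. The median log2 difference was -0.31 over the BiP system and -0.06 over the calnexin cycle. Dnajb9 (-0.47 ± 0.31, adjusted p = 0.343) and Manf (-0.46 ± 0.32, adjusted p = 0.390) were lower in every KO myoblast sample than in any WT one without passing the threshold, and Manf passed with only the 8 samples compared (0.0379). In this comparison 12.8% of all tested genes lay above and 14.0% below without overlap, against 6 and 2 of the 31 members. Xbp1 was higher in every KO myoblast sample than in any WT one (0.62 ± 0.27) but missed the threshold (adjusted p = 0.128). It passed with weights by group (0.0163), with only the 8 samples compared (0.00671) and without KO myotubes 4 (0.0215). P4hb, also without overlap, had 0.60 ± 0.25 (adjusted p = 0.120) and passed with weights by group (0.0369) and with only the 8 samples (0.0388). Atf6 had -0.86 ± 0.31 (adjusted p = 0.0664) and was called lower with weights by group (0.0196), the replicate block and without WT myoblasts 4 (0.0387) or KO myoblasts 3 (0.0208). Pdia5 was lost without WT myoblasts 3 (0.0610), WT myoblasts 4 (0.118), KO myoblasts 2 (0.0952) or KO myoblasts 3 (0.0903) and with limma voom (0.0602).

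In myotubes, Pdia5 and Calr were higher in KO than in WT cells, and Hsp90b1, Sdf2l1 and Atf6 were lower. Pdia5 had the largest difference, 1.39 ± 0.35 (adjusted p = 0.00658), from a mean of 25.2 ± 9.71 in WT to 68.8 ± 27.3 in KO myotubes (SD, n = 4), and every KO sample lay above the WT samples. It was called higher in KO cells at both stages. Calr differed by 0.93 ± 0.30 (adjusted p = 0.0296), with WT myotubes 1 inside the KO range. Hsp90b1 differed by -1.25 ± 0.39 (adjusted p = 0.0245), with WT myotubes 2 inside the KO range, and its lowest value, in KO myotubes 4, rests on 8 reads. Atf6 differed by -0.98 ± 0.31 (adjusted p = 0.0262), with every KO myotube sample below the WT myotubes. Sdf2l1, a partner of the J-domain cochaperones of BiP, had 123, 109.7, 81.8 and 93.1 in WT and 77.5, 87.6, 37.8 and 43.96 in KO myotubes, with overlap (-0.78 ± 0.25, adjusted p = 0.0251). Hspa5 had 0.49 ± 0.27 in the same comparison and was not called (adjusted p = 0.192). P4hb (0.57 ± 0.25, adjusted p = 0.107) was called higher without WT myotubes 1 (0.0191), and Manf (-0.73 ± 0.32, adjusted p = 0.102) was called lower without KO myotubes 1 (0.0275). Apart from Pdia5, the calls between myotubes were lost when single samples were left out. Calr was lost without WT myotubes 2 (0.0504), WT myotubes 3 (0.111), WT myotubes 4 (0.0889) or KO myotubes 1 (0.115), and Sdf2l1 without WT myotubes 1 (0.0689), WT myotubes 2 (0.0553), KO myotubes 3 (0.0924) or KO myotubes 4 (0.0715). Hsp90b1 was lost without WT myotubes 1 (0.0845), WT myotubes 3 (0.0533), WT myotubes 4 (0.0569), KO myotubes 2 (0.0511) or KO myotubes 4 (0.0898), and Atf6 without WT myotubes 3 (0.0972), WT myotubes 4 (0.0633), KO myotubes 2 (0.0584) or KO myotubes 4 (0.0619). Without both shallow KO myotube samples the log2 fold change of Hsp90b1 was -0.56 (adjusted p = 0.330) and that of Atf6 -0.66 (0.202). With weights by group, which give KO myotubes their own spread, 1 of the 5 calls was left, Pdia5. With only the 8 myotube samples Pdia5 and Atf6 were left, and Calr (adjusted p = 0.0520), Hsp90b1 (0.0520) and Sdf2l1 (0.0920) were not called.

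The change on differentiation differed between genotypes for Herpud1, which rose by 2.23 in WT and 0.85 in KO cells on the log2 scale, a difference of -1.38 ± 0.35 (adjusted p = 0.0305). The KO myoblasts began above the WT myoblasts, and the myotubes of both genotypes overlapped, with means of 566 ± 239.6 in WT and 439 ± 127 in KO cells (SD, n = 4). Ero1l and Xbp1 had the same order of values, higher in KO than in WT myoblasts and overlapping in myotubes, with differences of -1.08 and -1.12 that did not pass. Hsp90b1 had a difference of -0.99 ± 0.55 (adjusted p = 0.369). The Herpud1 difference was lost without WT myoblasts 2 (0.0792), WT myoblasts 4 (0.0614), WT myotubes 1 (0.0517), KO myoblasts 1 (0.0639), KO myoblasts 3 (0.0758), KO myoblasts 4 (0.0525), KO myotubes 3 (0.0549) or KO myotubes 4 (0.0546), and without both shallow KO myotube samples (0.0690), while its size stayed between -1.55 and -1.12 over the alternatives.

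**Figure D5:**
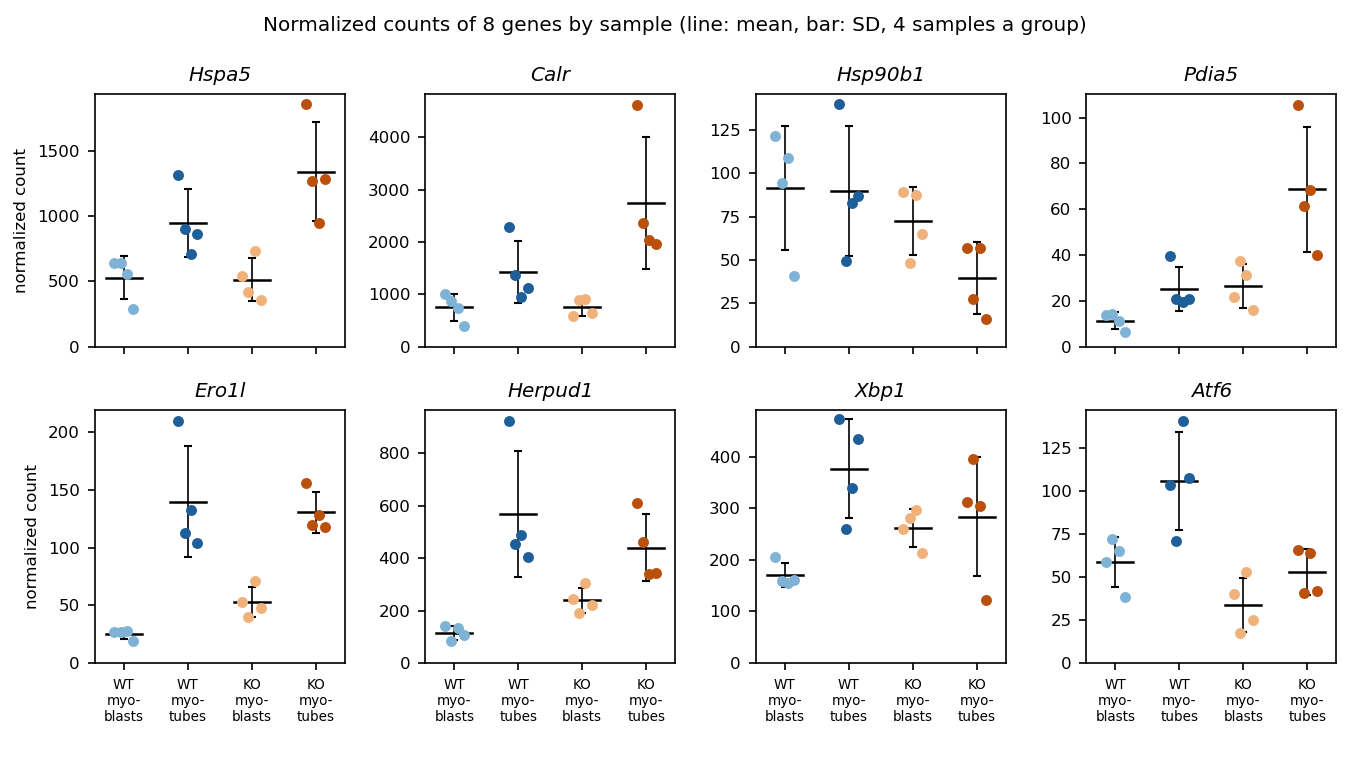
Normalized counts (vertical axes, linear and starting at 0) of 8 members in the 16 samples, 4 per group, with the mean as a line and the SD as a bar. Herpud1, Ero1l and Xbp1 are higher in KO than in WT myoblasts but overlap between the myotube groups, and the Xbp1 difference between myoblasts was not called. Pdia5 is higher in KO cells at both stages, and Hsp90b1 and Atf6 are lower on average in KO cells at both stages.

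The other genes of these pathways were taken from lists made by function, with earlier results of these data known. Shares of each list are given to be read against the shares of all tested genes called. Those were 13.8% higher and 9.16% lower in WT myotubes, 17.3% and 16.1% in KO myotubes, 7.26% and 8.50% in KO against WT myoblasts, and 9.74% and 13.7% in KO against WT myotubes. Of 43 tested genes in a wider folding list (46 named), 24 (55.8%) rose and 0 fell in WT cells (median log2 fold change 0.76), and 22 (51.2%) rose and 1 (2.33%) fell in KO cells (median 0.69). Serpinh1, the collagen chaperone Hsp47, rose from 108 ± 22.6 to 413 ± 223 in WT cells (1.81 ± 0.31, adjusted p = 2.93e-04) and from 150.1 ± 19.3 to 480.5 ± 218 in KO cells (1.55 ± 0.31, adjusted p = 7.06e-04). Qsox1, a sulfhydryl oxidase, rose by 1.78 ± 0.27 in WT (adjusted p = 8.15e-05) and 2.15 ± 0.27 in KO cells (adjusted p = 3.75e-06). Dnajc16 rose by 1.71 ± 0.41 in WT (adjusted p = 0.00483) and 1.77 ± 0.41 in KO cells (adjusted p = 0.00228). The prolyl isomerase Fkbp2 fell in KO cells (-1.46 ± 0.35, adjusted p = 0.00284), and its WT value was 0.41 ± 0.35 (adjusted p = 0.423). The change of Fkbp2 differed between genotypes by -1.87 ± 0.49 (adjusted p = 0.0380). It was lost without WT myoblasts 1 (0.0512), WT myoblasts 2 (0.0928), WT myoblasts 3 (0.0507), WT myoblasts 4 (0.0647), WT myotubes 1 (0.0767), WT myotubes 3 (0.0693), WT myotubes 4 (0.0582), KO myoblasts 1 (0.0825), KO myoblasts 3 (0.0740) or KO myoblasts 4 (0.0697), and with no filter on low values (0.0526). For Serpinh1, Qsox1 and Dnajc16 the test of the difference between genotypes did not pass. Between genotypes 6 (14.0%) of the 43 were higher and 0 lower in KO myoblasts, and 5 (11.6%) higher and 1 (2.33%) lower in KO myotubes. Fkbp9 and Fkbp14, ER prolyl isomerases, had the largest rises of the called genes without overlap at both stages. Fkbp9 differed by 1.17 ± 0.21 in myoblasts (adjusted p = 3.55e-04) and 1.39 ± 0.21 in myotubes (adjusted p = 7.46e-05). Fkbp14 differed by 1.03 ± 0.26 (adjusted p = 0.00752) and 1.36 ± 0.26 (adjusted p = 6.67e-04). Fkbp2 was lower in KO myotubes, at 38.7, 36.5, 24.3 and 7.99 against 129, 88.2, 95.7 and 85.2 in WT (-2.04 ± 0.35, adjusted p = 2.37e-04).

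Of 48 tested genes in a wider ERAD list (49 named), 10 (20.8%) were higher and 3 (6.25%) lower in WT myotubes (median 0.19), and 13 (27.1%) were higher and 10 (20.8%) lower in KO myotubes (median -0.07), shares not far from those of all tested genes. Os9, a lectin that hands glycoproteins to the Hrd1 complex, rose in WT cells from 41.02 ± 22.05 to 120.0 ± 23.9 (1.67 ± 0.40, adjusted p = 0.00468) and in KO cells by 1.37 ± 0.40 (adjusted p = 0.0117), there with overlap. Rhbdd1, a rhomboid protease of the ER, rose by 1.65 ± 0.30 in WT (adjusted p = 4.66e-04) and 1.198 ± 0.30 in KO cells (adjusted p = 0.00408). Svip, an inhibitor of ERAD, fell in WT cells, from 10.1, 15.4, 8.01 and 13.4 to 1.73, 1.799, 7.43 and 7.93 (-1.34 ± 0.48, adjusted p = 0.0476), a low count whose call was lost in 9 of the 16 fits that each left out 1 sample, and its KO value was -0.34 ± 0.48 (adjusted p = 0.622). The ER ligase Rnf139 rose by 1.201 ± 0.22 in WT (adjusted p = 4.84e-04) and 1.399 ± 0.22 in KO cells (adjusted p = 4.89e-05). The deubiquitinase Yod1 rose in KO cells (1.198 ± 0.24, adjusted p = 6.89e-04), with a WT value of 0.20 ± 0.24 (adjusted p = 0.601). Stub1, the cytosolic ligase CHIP, fell in WT (-0.81 ± 0.28, adjusted p = 0.0388) and KO cells (-1.32 ± 0.28, adjusted p = 9.18e-04). Its WT call was lost without WT myoblasts 1 (0.0816), WT myoblasts 3 (0.0826), WT myoblasts 4 (0.103), WT myotubes 1 (0.184) or WT myotubes 4 (0.0843), with no filter (0.0584) and without replicate 1 of both myotube groups (0.0824). Ubqln2, a ubiquitin shuttle, fell in KO cells (-1.72 ± 0.25, adjusted p = 1.99e-05), with a WT value of -0.38 ± 0.25 (adjusted p = 0.284). The difference between these changes of Ubqln2 was -1.33 ± 0.35 (adjusted p = 0.0392). It was lost without WT myoblasts 1 (0.0754), WT myoblasts 2 (0.0864), WT myoblasts 3 (0.0623), WT myoblasts 4 (0.0588), WT myotubes 1 (0.0647), WT myotubes 3 (0.0896), WT myotubes 4 (0.0981), KO myoblasts 1 (0.0917), KO myoblasts 3 (0.0846), KO myotubes 1 (0.0581) or KO myotubes 4 (0.0691), with no filter (0.0507), without the 2 shallow KO myotube samples (0.109) and without replicate 1 of both myotube groups (0.0896). For the other 6 of these genes the test of the difference between genotypes did not pass. Between genotypes 1 (2.08%) was higher and 0 lower in KO myoblasts, Fbxo6 (0.55 ± 0.16, adjusted p = 0.0209), and 0 were higher and 4 (8.33%) lower in KO myotubes. Fbxo6 was not called without WT myoblasts 1 (0.0603), WT myoblasts 2 (0.0739) or KO myoblasts 1 (0.0645).

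Of 26 tested further regulators and ER genes of the response (28 named), 9 (34.6%) rose and 1 (3.85%) fell in WT cells (median 0.53), and 8 (30.8%) rose and 3 (11.54%) fell in KO cells (median 0.39). Wfs1, an ER membrane protein induced in this response, rose by 1.58 ± 0.30 in WT (adjusted p = 7.28e-04) and 1.59 ± 0.30 in KO cells (adjusted p = 3.80e-04). Stim1, the ER calcium sensor, rose by 1.44 ± 0.30 in WT (adjusted p = 0.00156) and 0.92 ± 0.30 in KO cells (adjusted p = 0.0224), the latter not without KO myoblasts 1 (0.0645), KO myoblasts 3 (0.0518) or KO myotubes 1 (0.0783), nor with weights by group (0.0594). Mbtps1, the site-1 protease that cuts ATF6, rose by 0.64 ± 0.19 in WT (adjusted p = 0.0196), though not without WT myoblasts 4 (0.0695) or WT myotubes 1 (0.0828), and 1.35 ± 0.19 in KO cells (adjusted p = 1.52e-05). For none of these 3 genes did the test of the difference between genotypes pass. Sec61a1, the channel through which proteins enter the ER, was higher in KO cells at both stages, by 0.61 ± 0.18 in myoblasts (adjusted p = 0.0216) and 1.03 ± 0.18 in myotubes (adjusted p = 2.78e-04). Of this list 1 (3.85%) was higher and 0 lower in KO myoblasts, and 4 (15.4%) higher and 1 (3.85%) lower in KO myotubes. One of the higher ones was Creb3l1, an ER-bound transcription factor (0.65 ± 0.20, adjusted p = 0.0239). Sec61a1 was not called in myoblasts without WT myoblasts 4 (0.0996) or KO myoblasts 3 (0.0897), and Creb3l1 not without WT myotubes 1 (0.0862), WT myotubes 4 (0.0660), KO myotubes 2 (0.0570) or KO myotubes 3 (0.0530).

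The last list held the PERK branch, the targets and partners of Atf4. Of its 25 genes, all tested, 9 (36.0%) were higher and 2 (8%) lower in KO myoblasts, with a median log2 fold change of 0.47. Trib3, a pseudokinase induced by Atf4 and Chop, had 142, 138, 113 and 135 in WT and 683, 922, 757 and 830.1 in KO myoblasts (2.58 ± 0.16, adjusted p = 9.35e-11). Ddit3, which encodes Chop, had 335, 235, 299 and 379 and 966, 1205, 1055 and 1070.3 (1.797 ± 0.18, adjusted p = 1.32e-07). For both genes every KO sample lay above the WT samples. Vldlr, a lipoprotein receptor, had 4.61, 12.5, 18.01 and 8.02 in WT and 0 or 1 read in each KO myoblast sample (adjusted p = 0.00164). Vldlr reached a normalized count of 10 in WT samples alone, so that its filter and its differences between genotypes are linked. In KO myotubes it had 0 to 11 reads per sample. Bcl2l11, which encodes the cell death protein Bim, was lower (-0.98 ± 0.27, adjusted p = 0.0157), though not without WT myoblasts 3 (0.0672) or KO myoblasts 3 (0.0744). In WT cells 9 (36.0%) genes of the branch rose on differentiation and 0 fell (median 0.50), and in KO cells 4 (16%) rose and 8 (32.0%) fell (median -0.25). Trib3 rose in WT cells (1.75 ± 0.16, adjusted p = 9.00e-08) and fell in KO cells (-0.55 ± 0.16, adjusted p = 0.0131). Vldlr rose in WT cells (2.403 ± 0.62, adjusted p = 0.00841) and was called higher in KO myotubes too (adjusted p = 0.0261), though not without KO myoblasts 3 (0.0642), KO myoblasts 4 (0.0692), KO myotubes 1 (0.0731), KO myotubes 3 (0.0870) or KO myotubes 4 (0.0564), with a pseudocount of 5 (0.0675), limma voom (0.0520), only the 8 samples compared (0.0896) or without replicate 1 of both myotube groups (0.0736). Nupr1 rose in KO cells (0.79 ± 0.24, adjusted p = 0.0133), though not without KO myoblasts 2 (0.0568), and its WT value was 0.63 ± 0.24 (adjusted p = 0.0606), which passed without WT myotubes 2 (0.0487), KO myoblasts 2 (0.0248) or KO myotubes 2 (0.0420), with weights by group (0.0362) and with only the 8 samples compared (0.0207). Phgdh, of serine synthesis, fell in KO cells (-2.47 ± 0.45, adjusted p = 2.59e-04), and its WT value of -1.19 ± 0.45 missed the threshold (adjusted p = 0.0626) but passed without KO myoblasts 2 (0.0368), KO myoblasts 3 (0.0452), KO myotubes 2 (0.0412) or KO myotubes 4 (0.0220) and with a pseudocount of 5 (0.0441), quantile normalization (0.0313), the replicate block (0.0363), weights by group (0.0253), limma voom (0.0339), only the 8 samples compared (5.37e-04) and without the 2 shallow KO myotube samples (0.0157). The bZIP factor Cebpg fell in KO cells (-1.09 ± 0.20, adjusted p = 2.50e-04), with -0.24 ± 0.20 in WT cells (adjusted p = 0.421). In myotubes 3 (12.0%) were higher and 3 (12.0%) lower in KO cells. Ddit3 (1.02 ± 0.18, adjusted p = 2.95e-04) and Sesn2, a stress-induced inhibitor of mTORC1 (0.85 ± 0.20, adjusted p = 0.00393), were higher. Atf4 itself (-0.77 ± 0.22, adjusted p = 0.0140) and Vldlr, with 108, 29.7, 65.98 and 44.6 in WT and 6.78, 0, 9.896 and 5.99 in KO myotubes (adjusted p = 3.38e-04), were lower. Atf4 was not called without WT myotubes 3 (0.0629) or with weights by group (0.0679). The change on differentiation differed between genotypes for 3 (12.0%) of the 25 genes, each lower in KO cells, against 1.97% higher and 1.48% lower of all tested genes. These were Trib3 (-2.29 ± 0.23, adjusted p = 1.39e-06), Asns, which makes asparagine (-1.59 ± 0.21, adjusted p = 7.18e-05), and Chac1, which degrades glutathione (-1.502 ± 0.26, adjusted p = 0.00128). Asns and Chac1 were named after their values were seen. For Vldlr, Nupr1, Phgdh and Cebpg this test did not pass. PERK acts on Atf4 through translation, which these counts do not measure, and these genes also respond to other stresses, such as amino acid shortage.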

How the data were processed

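RNA of 16 C2C12 samples was measured with digital mRNA sequencing (NEGEDIA Digital mRNA-seq), 4 samples for each genotype and stage. The deposited values are log2(normalized count + 1) per gene, which the authors made, per the labels and methods, by adapter trimming, alignment to mm10 with STAR 2.6.0a and counting with HTSeq. The tool behind the scaling and the strand setting are not given in the sources used here. Undoing the logarithm gave whole multiples of 1 read for 100% of values (tolerance 0.01), so reads and depth were recovered. No second logarithm was taken. The 74 rows without a gene symbol were kept out of the member counts.

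Group means were fitted with limma 3.58.1 (R 4.3.3, trended variance, all 16 samples, two-sided moderated test) over genes with a normalized count of 10 or more in 4 or more samples, with Benjamini-Hochberg adjustment in each of 5 comparisons and 0.05 as the threshold. Fold changes are on the scale of normalized count + 1, which understates those of low genes. The fit was tested on simulated data with the same spread setting for all genes and groups. Those data did not include the wider spread between KO myotube samples, so the test does not bear on it. The labels call the samples biological replicates without naming separate cultures. The p-values set each group difference against the spread between these samples, pooled over the 4 groups. That spread may not be the one between separate cultures. Promoters came from RefSeq and gene positions from GENCODE, both on GRCm38.

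Members and lists were chosen with earlier results of these data known. Members were given per sample if always listed (Hspa5, Hsp90b1 and the sensors) or if called and among the 3 largest changes of their role group, and other genes if among the 2 largest called rises or falls of their list without overlap between groups. Per-sample values of a few other genes (Syvn1, Myog, Myod1, Dcn, Lpl) were added after their values were seen. Alternatives varied the pseudocount, filter, scaling, model, thresholds and samples. Leaving out the 2 shallow KO myotube samples, and replicate 1 of both myotube groups, was chosen after seeing the data.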

Additional observations from a re-analysis of the deposited data

Results flagged for a closer look

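Each member was examined in each group of 4 samples, which gave 133 sets of 4 values. In 10 of them (7.52%) a value stood apart from the other 3 by more of the range than Dixon's critical value at 95% allows. Chance gives about 1 in 20 for independent sets, which these are not, since members shifted together within samples. Of the 10 values, 5 were high values of WT myotubes 1: Dnajb11 at 178.7 (others 101.1 to 109.7), Uggt1 at 160.6, Pdia5 at 39.7, Pdia6 at 602.6 and Derl3 at 3.45, the last from 4 reads. WT myoblasts 4 was low in Pdia3 at 34.8 (others 67.4 to 73.3) and in Ero1l at 18.7 (others 26.8 to 28.02), and WT myoblasts 1 was high in Xbp1 at 204.8. Of the shallow KO myotube samples, replicate 2 was low in Edem1 at 61.3 (others 113.3 to 116.1) and replicate 4 low in Edem3 at 17.98, from 9 reads.

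The change of Herpud1 on differentiation differed between the genotypes in the limma test of the difference itself, by -1.38 on the log2 scale (adjusted p = 0.0305). Among the genes of the wider lists the same test passed for Fkbp2 by -1.87 (adjusted p = 0.0380), Ubqln2 by -1.33 (0.0392), Trib3 by -2.29 (1.39e-06), Asns by -1.59 (7.18e-05) and Chac1 by -1.50 (0.00128), with the change lower in KO cells in each. The results for Trib3, Asns and Chac1 were kept in all 16 fits that each left out 1 sample, and those for Fkbp2 and Ubqln2 in 6 and 5 of the 16.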

How the results depend on the processing

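Of the 45 member calls in the 5 comparisons, 28 were kept in all 16 fits that each left out 1 sample. Of the same calls, 23 were kept under every alternative in which the gene was tested, and 0 turned direction. Those 23 include the KO differentiation calls of Hyou1, Pdia5 and Ern1 and the myotube genotype call of Pdia5. Under the stricter minimum count, Hyou1, Pdia5 and Ern1 were too low to be tested, so those calls were not made there. Leaving out 1 sample gave 10 to 19 member calls for differentiation in WT cells (17 with all samples; 10 without WT myotubes 1, 11 without WT myoblasts 4), 15 to 20 in KO cells (18), 3 to 5 between myoblasts (4), 2 to 5 between myotubes (5) and 0 to 2 for the difference in change (1). Between myotubes 3 calls were left without WT myotubes 2 or KO myotubes 2, and 2 without WT myotubes 3, WT myotubes 4 or KO myotubes 4. The difference in change had 0 calls without WT myoblasts 2 or 4, WT myotubes 1, KO myoblasts 1, 3 or 4, or KO myotubes 3 or 4, and 2 without KO myoblasts 2 or KO myotubes 2.

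An adjusted p under 0.01 left 10 calls in WT cells, 1 between myotubes and 0 for the difference in change, and requiring a log2 change of 1 or more in size left 2 between myotubes. Without replicate 1 of both myotube groups WT cells had 11, and without the 2 shallow KO myotube samples the difference in change had 0. Weights by group gave 7 calls between myoblasts and 1 between myotubes, and only the 8 samples compared gave 7 and 2. Over all genes these settings gave 2812 and 2656 calls between myoblasts (1697 in the reported fit) and 1523 and 1565 between myotubes (2521). The causes were not tested. Xbp1 in KO cells, near 0 in the reported fit (-0.00066), was 0.0017 with a pseudocount of 5, 0.039 with limma voom, 0.24 without the 2 shallow samples, and between -0.20 and 0.36 with 1 sample left out. With the replicate block, member calls were 18, 20, 5, 5 and 1. Same-numbered samples share only a number: their deviations had a mean correlation of 0.033 over 24 pairs, 14 of them at or under 0.1, against -0.011 over 72 others. Reads per sample limited Eif2ak3, Ero1lb and Derl3.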
